A study of Mus musculus with 32 samples.

Results

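The disease-associated microglia signature was followed here through 10 genes, Trem2, Tyrobp, Axl, Clec7a, Itgax, Cst7, Spp1, Lpl, Cd9 and Gpnmb. They were taken by gene symbol, and the estimated counts of all listed transcripts of a gene were summed. The female table listed all 10 among 13377 genes and the male table listed 9 among 11999, of 13704 genes in the series. Gpnmb was not listed in the male table. Every listed member passed the filter on low counts.

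Microglia are the resident macrophages of the brain and spinal cord. In mouse models of neurodegeneration, a subset of them lowers genes of the resting state and raises a shared program of receptors, lysosomal proteins and lipid-handling proteins, called the disease-associated program. Its central receptor is TREM2, which binds lipids and lipoproteins at the cell surface and signals through the adaptor TYROBP, also called DAP12. In those models the program was described as an early step that runs without Trem2 and includes Tyrobp, and a later step that needs Trem2 and includes Axl, Clec7a, Itgax, Cst7, Lpl and Cd9. Microglia of early postnatal white matter express a similar set.

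The series concerns spinal cord microglia that return after depletion, and the resolution of pain. RNA came from microglia sorted by fluorescence, and every library carries the genotype label Cx3Cr1-Cre;Rosa26-iDTR and the label day 14. In such mice, Cre from the Cx3cr1 gene switches on a diphtheria toxin receptor, so that the toxin removes the cells that carry it. Cx3cr1 is also active in border macrophages and in circulating monocytes, and the labels give neither the time and dose of the toxin nor the event from which day 14 is counted. Female groups were repopulated after depletion with fracture (4 libraries), resident with fracture (4), repopulated without fracture (3) and resident without fracture (4). Male groups, in the same order, held 7, 5, 2 and 3 libraries. Repopulated libraries are those labelled as depleted, and resident ones those labelled as not depleted. In the descriptions the resident libraries are called wild type, while their genotype label matches that of the depleted ones. The descriptions also name the depleted ones Dt in females and iDTR in males. Repopulation therefore cannot be told apart from a genotype or toxin exposure that went with it. Libraries of the 2 sexes were made with different kits, so sex and kit are 1 split and each table was analysed apart. The labels do not tie each library to its own animal, and p-values here speak only of variation among these libraries, some of which may be technical.

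Total estimated counts were 16438827 to 18654165 per female library and 5722993 to 33697535 per male library. All 18 homeostatic microglial genes of a marker list were present in both tables. Their summed level was 58320 to 74215 CPM (the count scaled to the library total times a TMM factor) in females and 64306 to 86844 CPM in males. In females the sums were 63486 to 66271 CPM in repopulated and 66585 to 68016 CPM in resident libraries with fracture. Without fracture they were 59176.5 to 60519 against 58320 to 74215 CPM. In males they were 64306 to 78942 against 75055 to 86844 CPM with fracture, and 65606 to 68175 against 78015 to 82779.5 CPM without fracture. Transcripts of markers of circulating macrophages were more abundant in repopulated libraries: 9 of 12 such genes were listed in females, with sums of 1852 to 2215 CPM in repopulated and 791 to 883 CPM in resident libraries with fracture, and 1665 to 2768 against 647 to 1364 CPM without fracture. In males 10 of 12 were listed, with sums of 879 to 2081 CPM in repopulated and 543 to 1098 CPM in resident libraries with fracture, and 1369 to 2408 against 389.6 to 471 CPM without fracture. Ccr2 and Ly6c2, which define inflammatory monocytes, were not listed in either table. A transcript was listed only with at least 10 estimated counts in 8 or more female or 9 or more male libraries. The female repopulated groups held 4 and 3 libraries, so a transcript found in them alone could not be listed. A male one, with groups of 7 and 2, had to reach 10 counts in every repopulated library. Non-listing therefore does not show absence from repopulated cells. Markers of border macrophages, of which 3 of 7 were listed in females and 4 of 7 in males, summed to 22.1 to 65.1 CPM in female repopulated and 0.836 to 3.90 CPM in resident libraries with fracture, and to 4.96 to 39.4 against 1.32 to 5.43 CPM without fracture. In males they summed to 9.30 to 80.0 against 2.90 to 10.3 CPM with fracture. Without fracture the male sums were 5.03 to 73.1 against 4.46 to 10.9 CPM. The defining genes Lyve1 and Cd163 were not listed in either table, with the same limit from the filter. Both lists ran higher in repopulated libraries, with overlap between some of the groups, and their part in the repopulation results given here was not tested. In sorted bulk RNA, more cells of a kind and more RNA per cell cannot be told apart.

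Per transcript length, the signature genes fell into an abundant and a scarce set. In female resident libraries without fracture, Tyrobp stood at 4988 ± 281, Cd9 at 2590.0 ± 336 and Trem2 at 1845 ± 127 TPM (a share of the library's transcripts, computed here from the counts and annotated lengths, mean ± SD, n = 4). Axl followed at 254 ± 173, Clec7a at 141 ± 99.4, Cst7 at 135 ± 134, Spp1 at 119 ± 89.0, Lpl at 74.1 ± 33.6, Itgax at 26.6 ± 24.0 and Gpnmb at 0.646 ± 1.15 TPM. The first 3 were separated from each other and from the rest, while neighbours from Axl down to Itgax overlapped in their spread. Female repopulated libraries without fracture had the same order, with Axl at 646 ± 44.1 and Itgax at 59.1 ± 7.13 TPM (n = 3). In male resident libraries without fracture the levels were 3967 ± 479.6 for Tyrobp, 3216 ± 155 for Trem2, 2881 ± 174 for Cd9, 91.6 ± 17.9 for Axl, 72.97 ± 57.6 for Spp1, 72.1 ± 11.5 for Clec7a, 40.0 ± 7.98 for Lpl, 37.1 ± 10.99 for Cst7 and 5.91 ± 1.60 TPM for Itgax (n = 3). There Axl, Spp1 and Clec7a overlapped in spread, as did Lpl and Cst7.

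The members lie at 10 separate loci of mouse build GRCm38 (GENCODE M21 annotation). Trem2 spans chr17:48346401-48354147, Tyrobp chr7:30413760-30417585, Itgax chr7:128129547-128150657, Cst7 chr2:150570415-150578944, Spp1 chr5:104435118-104441050, Lpl chr8:68880491-68907448 and Gpnmb chr6:49036546-49070929, all on the plus strand. Axl spans chr7:25757273-25788705, Clec7a chr6:129461591-129472779 and Cd9 chr6:125460266-125494791, on the minus strand. Cd9 overlaps the antisense genes Gm28809 and Gm26728, and Spp1 overlaps Gm42793, so reads of Cd9 could be shared with its antisense genes if strand was not used, and those of Spp1 with Gm42793, on the same strand, in any case.

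RefSeq promoter windows (build GRCm38.p6, 250 bases before to 50 bases after the annotated start) matched 8 of the 10 members, with 10 windows in all, and those of Trem2 and of the 4 members called in both male comparisons with the largest changes are shown 5′ to 3′ along the gene. Capitals mark GAGGAA on either strand, a core of sites for the myeloid factor PU.1, and TGANTCA, the site of AP-1 factors. The motifs did not overlap each other.
Trem2 (chr17:48346151-48346450, plus strand): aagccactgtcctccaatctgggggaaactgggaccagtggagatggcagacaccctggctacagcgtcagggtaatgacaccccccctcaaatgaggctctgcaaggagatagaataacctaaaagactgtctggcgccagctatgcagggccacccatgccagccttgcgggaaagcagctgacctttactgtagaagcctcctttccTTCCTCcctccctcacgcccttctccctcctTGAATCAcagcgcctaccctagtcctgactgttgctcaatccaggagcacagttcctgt
Axl (chr7:25788684-25788983, minus strand): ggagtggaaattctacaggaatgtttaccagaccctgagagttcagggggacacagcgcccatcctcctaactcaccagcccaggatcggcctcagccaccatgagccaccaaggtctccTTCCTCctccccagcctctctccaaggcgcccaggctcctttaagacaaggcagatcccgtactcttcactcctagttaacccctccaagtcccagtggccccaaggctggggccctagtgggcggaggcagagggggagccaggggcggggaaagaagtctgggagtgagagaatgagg
Clec7a (chr6:129472730-129473029, minus strand): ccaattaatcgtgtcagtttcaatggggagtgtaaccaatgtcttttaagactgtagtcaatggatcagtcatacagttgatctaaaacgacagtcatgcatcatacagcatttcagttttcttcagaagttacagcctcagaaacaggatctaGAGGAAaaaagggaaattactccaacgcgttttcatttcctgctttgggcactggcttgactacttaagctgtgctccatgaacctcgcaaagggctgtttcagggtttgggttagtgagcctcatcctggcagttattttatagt
Itgax (chr7:128129300-128129599, plus strand): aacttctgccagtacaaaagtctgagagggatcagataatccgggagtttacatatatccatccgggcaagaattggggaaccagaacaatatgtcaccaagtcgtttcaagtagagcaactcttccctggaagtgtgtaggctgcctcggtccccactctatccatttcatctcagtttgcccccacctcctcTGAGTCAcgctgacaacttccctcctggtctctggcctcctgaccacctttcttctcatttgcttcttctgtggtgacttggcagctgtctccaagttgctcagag
Cst7 (chr2:150570165-150570464, plus strand): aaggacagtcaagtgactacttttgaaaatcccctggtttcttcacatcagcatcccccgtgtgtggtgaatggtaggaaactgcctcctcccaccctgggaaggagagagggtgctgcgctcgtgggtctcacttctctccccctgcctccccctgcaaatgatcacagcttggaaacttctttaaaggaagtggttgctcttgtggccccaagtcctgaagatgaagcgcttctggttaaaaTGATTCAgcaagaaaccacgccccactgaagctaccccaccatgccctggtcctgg
GAGGAA occurred in 5 of the 10 windows, at -40 from the start in Trem2 and -130 in Axl (both on the other strand), at -96 in the Clec7a window shown, -90 in its second window and -113 in Spp1, and in 28.3% of all 32851 windows. TGANTCA occurred in 4 windows, at -6 in Cst7, -9 in Trem2, -56 in Itgax and 8 in Gpnmb, and in 7.81% of all windows. Positions count from the start base, 0, to the leftmost base of the match. A match describes letters in the window and is no evidence of binding. Of the other motifs searched on both strands, CACGTG was in 0 of the 10 windows (7.15% of all windows), CATGTG in 1, that of Cd9 (14.2%), and a core of the interferon response element in 1, that of Spp1 (3.44%).

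The comparison of repopulated with resident microglia asked how cells that return after depletion differ from those that were never depleted. Every listed member had a positive estimated fold change, in both sexes and both fracture states. The members that passed the test were not the same in the female and the male table, and the difference between the sexes was not tested. In females only the receptor gene Trem2 and its adaptor Tyrobp rose, by 1.21- to 1.29-fold, while Axl, Clec7a, Itgax and Cst7 stood 2.07- to 3.44-fold higher without passing. In males Axl, Cst7, Itgax, Clec7a and Cd9 rose in both fracture states, by up to 10.8-fold for Itgax, and Trem2 and Tyrobp did not pass. The median log2 fold change over members was 0.97 in females with fracture, against -0.00023 over all genes tested, and 0.86 against -0.019 without fracture. In males it was 0.72 against -0.0049 with fracture and 1.96 against -0.028 without fracture.

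Genes were called at an adjusted p below 0.05 (edgeR quasi-likelihood test, Benjamini-Hochberg over all genes of a comparison), and every change given as a value ± its standard error is a log2 fold change. With fracture, 2 of 10 female members were called, both higher, where 2.35% of all genes were called and 1.27% were called higher. Without fracture, 2 of 10 were called, where 2.53% of all genes were called and 1.56% were called higher. In males 5 of 9 members were called with fracture, all higher (4.91% of all genes, 3.03% higher), and 6 of 9 without fracture, all higher (7.42% of all genes, 4.7% higher). The groups did not overlap, with every repopulated library above every resident one, for 6 of 10 members in females with fracture (6.26% of all genes) and 4 of 10 without fracture (6.87%). In males this held for 3 of 9 members with fracture (2% of all genes) and 7 of 9 without fracture (17%). Scaled by library totals alone, the split of called genes in females moved from 170 higher and 145 lower to 110 and 276 with fracture, and from 209 and 129 to 116 and 228 without fracture, where the median of all genes was then -0.11. In males it moved from 364 and 225 to 303 and 338 with fracture, and from 564 and 326 to 442 and 501 without fracture.

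**Figure D1:**
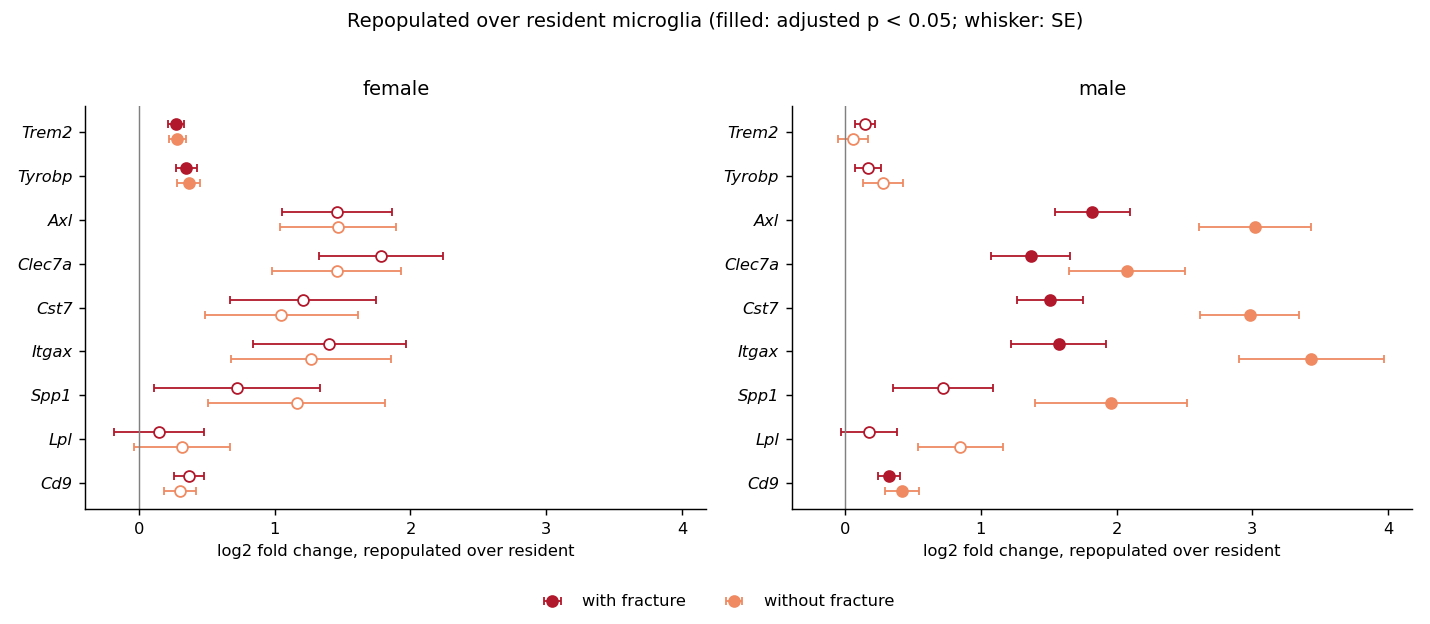
Log2 fold change of repopulated over resident microglia (x axis) for each signature gene (y axis), females on the left and males on the right, with the comparison with fracture drawn above that without fracture. Points are edgeR estimates, whiskers standard errors, and filled points passed an adjusted p of 0.05; Gpnmb, near 0 counts in many libraries, is not drawn. In females the filled points are Trem2 and Tyrobp, close to 0.3, while in males Axl, Cst7 and Itgax lie between 1.51 and 3.43.

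Trem2 and Tyrobp, the receptor and the adaptor that carries its signal into the cell, were both abundant. Trem2 had 1439, 1445, 1400.0 and 1585 CPM in female repopulated libraries with fracture, against 1175, 1218, 1197 and 1257 CPM in resident ones. Without fracture it had 1551, 1523 and 1444 CPM in repopulated and 1154, 1357, 1266 and 1171 CPM in resident libraries. All repopulated libraries lay above all resident ones in both states, and Trem2 rose by 0.28 ± 0.06, adjusted p = 0.0223 with fracture and by 0.28 ± 0.06, adjusted p = 0.0283 without fracture. Tyrobp had 1787, 1858, 1774 and 1714 CPM in female repopulated libraries with fracture, against 1326, 1242, 1579.6 and 1454 CPM in resident ones. Without fracture the values were 2006, 1713 and 1693 CPM in repopulated and 1449, 1348, 1525 and 1278 CPM in resident libraries. These groups did not overlap either, and Tyrobp rose by 0.35 ± 0.08, adjusted p = 0.0297 with fracture and by 0.37 ± 0.08, adjusted p = 0.0337 without fracture.

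Both female calls sat close to the threshold. Scaled by library totals alone, Trem2 stood 0.19 higher with fracture (adjusted p = 0.106) and 0.20 without fracture (0.103), and Tyrobp 0.26 (0.0702) and 0.28 (0.0684). Leaving out 1 library ended the Trem2 call with fracture for resident 1, 2 or 3 or repopulated 1 or 4 (adjusted p up to 0.0758), and without fracture for resident 1 or 4 or repopulated 1 or 2 (up to 0.109). For Tyrobp it ended the call with fracture for resident 1, 2 or 4 or repopulated 1, 2 or 3 (up to 0.0966), and without fracture for resident 1, 2 or 4 or repopulated 1 or 2 (up to 0.155). Fitted on the 2 compared groups alone, without fracture, Trem2 had an adjusted p of 0.213 and Tyrobp of 0.19. With the largest transcript only, Tyrobp had an adjusted p of 0.0884 with fracture and 0.112 without. With each library left out in turn, the log2 fold change stayed between 0.23 and 0.33 for Trem2 and between 0.28 and 0.41 for Tyrobp.

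In males the groups overlapped for both genes. Trem2 had a lowest value of 1787, a median of 2097 and a highest value of 2283 CPM in the 7 male repopulated libraries with fracture, against 1773, 2092, 2037, 1793 and 1666 CPM in resident ones. Where there was no fracture it had 1996 and 2123 CPM in repopulated and 2276, 1889 and 1766 CPM in resident libraries. Resident library 1 without fracture was the highest of that comparison, and Trem2 did not pass (0.15 ± 0.07, adjusted p = 0.332 with fracture, 0.06 ± 0.11, adjusted p = 0.863 without fracture). Its approximate 95% intervals were 0.01 to 0.29 and -0.16 to 0.28, and under library totals alone the sign without fracture turned to -0.03. The first interval leaves out 0 although the edgeR test gave an unadjusted p that was not below 0.05. A span of 1.96 standard errors is narrower than the interval of that test. Tyrobp had a lowest value of 1230.2, a median of 1364 and a highest value of 1537 CPM in male repopulated libraries with fracture, against 1098, 1371, 1468, 1164 and 1046 CPM in resident ones. In the absence of fracture it had 1342 and 1674 CPM in repopulated and 1540.4, 1169 and 1018 CPM in resident libraries. It did not pass either (0.17 ± 0.10, adjusted p = 0.445 with fracture, 0.28 ± 0.15, adjusted p = 0.347 without fracture).

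Axl, a receptor tyrosine kinase that recognises dying cells through the bridging protein GAS6, passed in males and not in females. In females it had 792, 898, 735 and 686 CPM in repopulated libraries with fracture, against 278, 229, 273 and 354 CPM in resident ones. Without fracture the values were 1558, 1390.2 and 1349 CPM in repopulated and 569, 165, 1003 and 341 CPM in resident libraries. The groups did not overlap in either state, but resident library 3 without fracture stood far above the other resident libraries, and Axl did not pass (1.46 ± 0.41, adjusted p = 0.0908 with fracture, 1.46 ± 0.43, adjusted p = 0.106 without fracture). Fitted on the 2 compared groups alone, female Axl with fracture passed (1.44, adjusted p = 0.000376), as did Clec7a, Itgax and Cst7. Male Axl had a lowest value of 409, a median of 878 and a highest value of 1511 CPM in repopulated libraries with fracture, against 358, 213, 176, 293 and 299 CPM in resident ones. Without the injury it had 1635 and 1689.6 CPM in repopulated and 184, 236 and 196 CPM in resident libraries. Repopulated library 1 with fracture was the lowest of its group and still above every resident one. Male Axl rose by 1.82 ± 0.28, adjusted p = 0.00148 with fracture and by 3.02 ± 0.41, adjusted p = 0.000426 without fracture, and both calls held with each library left out in turn.

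Clec7a, which encodes dectin-1, a receptor for fungal glucans that signals through SYK, likewise passed in males and not in females. In females it had 200.5, 285, 185 and 108 CPM in repopulated libraries with fracture, against 55.3, 37.5, 66.7 and 66.9 CPM in resident ones. Without fracture it had 379, 264 and 262 CPM in repopulated and 102.5, 45.1, 224 and 68.1 CPM in resident libraries. No resident library reached a repopulated one, resident library 3 without fracture coming closest, and Clec7a did not pass (1.78 ± 0.45, adjusted p = 0.0648 with fracture, 1.46 ± 0.47, adjusted p = 0.149 without fracture). Male Clec7a had a lowest value of 59.9, a median of 147 and a highest value of 279 CPM in repopulated libraries with fracture, against 77.3, 54.8, 61.9, 79.3 and 55.7 CPM in resident ones. Where there was no fracture it had 240.5 and 303 CPM in repopulated and 87.0, 55.1 and 50.5 CPM in resident libraries. Only repopulated library 1 with fracture fell among the resident ones, and Clec7a rose by 1.37 ± 0.29, adjusted p = 0.0116 with fracture and by 2.08 ± 0.43, adjusted p = 0.00668 without fracture. Without repopulated library 2, the call without fracture was lost (adjusted p = 0.0618), the remaining repopulated library being assumed to vary like the other groups.

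Itgax encodes CD11c, an integrin alpha chain that pairs with ITGB2 and marks microglia of the program as well as dendritic cells. It had 54.2, 79.6, 57.3 and 39.4 CPM in female repopulated libraries with fracture, against 15.4, 24.7, 20.6 and 26.3 CPM in resident ones. In the absence of fracture it had 135, 114 and 112 CPM in repopulated and 47.5, 9.14, 117 and 26.6 CPM in resident libraries. The groups overlapped without fracture through resident library 3 alone, and Itgax did not pass (1.40 ± 0.56, adjusted p = 0.27 with fracture, 1.27 ± 0.59, adjusted p = 0.336 without fracture). Male Itgax had a lowest value of 25.5, a median of 42.3 and a highest value of 124 CPM in repopulated libraries with fracture, against 25.6, 15.9, 19.8, 22.2 and 17.97 CPM in resident ones. Without the injury it had 149 and 125 CPM in repopulated and 10.4, 12.3 and 15.3 CPM in resident libraries. Repopulated library 1 with fracture lay just under the highest resident library, and Itgax rose by 1.57 ± 0.35, adjusted p = 0.0136 with fracture and by 3.43 ± 0.54, adjusted p = 0.000726 without fracture. Without resident library 2, the call with fracture ended at an adjusted p of 0.0501. Of 7 dendritic markers, 3 were listed in females. With fracture they summed to 8.08 to 13.8 CPM in repopulated and 5.69 to 15.5 CPM in resident libraries. Without fracture the sums were 6.88 to 9.23 against 7.04 to 10.7 CPM. Clec9a, Ccr7, Cd209a and Clec10a were not listed, and the count filter would have left them out if found in repopulated libraries alone. Only Zbtb46 was listed in males, at 2.94 to 6.87 CPM in repopulated and 4.61 to 8.1 CPM in resident libraries with fracture, and 6.91 to 8.87 against 2.52 to 10.04 CPM without fracture.

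Cst7 encodes cystatin F, an inhibitor of cysteine cathepsins in lysosomes. It had 78.2, 92.1, 59.5 and 59.6 CPM in female repopulated libraries with fracture, against 27.7, 26.3, 30.8 and 40.2 CPM in resident ones. Without fracture it had 181, 113 and 114 CPM in repopulated and 49.0, 17.9, 164 and 31.9 CPM in resident libraries. Resident library 3 lay above 2 of the 3 repopulated libraries without fracture, and Cst7 did not pass (1.21 ± 0.54, adjusted p = 0.342 with fracture, 1.05 ± 0.56, adjusted p = 0.426 without fracture). Male Cst7 had a lowest value of 41.6, a median of 69.1 and a highest value of 110.05 CPM in repopulated libraries with fracture, against 30.9, 22.4, 23.5, 21.6 and 28.7 CPM in resident ones. Where there was no fracture it had 122 and 199 CPM in repopulated and 28.3, 13.3 and 18.3 CPM in resident libraries. No male groups overlapped, Cst7 rose by 1.51 ± 0.24, adjusted p = 0.000943 with fracture and by 2.98 ± 0.36, adjusted p = 4.55e-05 without fracture, and both calls held with each library left out in turn.

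In females without fracture, 1 library carried much of the spread. Resident library 3 was the highest of the 4 resident libraries for 9 of the 10 members, and without it 6 members were called instead of 2. Calls over all genes rose as well, from 338 to 612. Axl then rose by 1.99 (adjusted p = 0.00853), Clec7a by 2.06 (0.0108), Cst7 by 2.04 (0.00385) and Itgax by 2.11 (0.0229), beside Trem2 and Tyrobp. The summed circulating-macrophage markers were 1364 CPM in that library and 647 to 1226 CPM in the other resident libraries without fracture, and the summed microglial markers were 58320 CPM against 63335 to 74215 CPM. Their part in its signature levels was not tested.

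**Figure D2:**
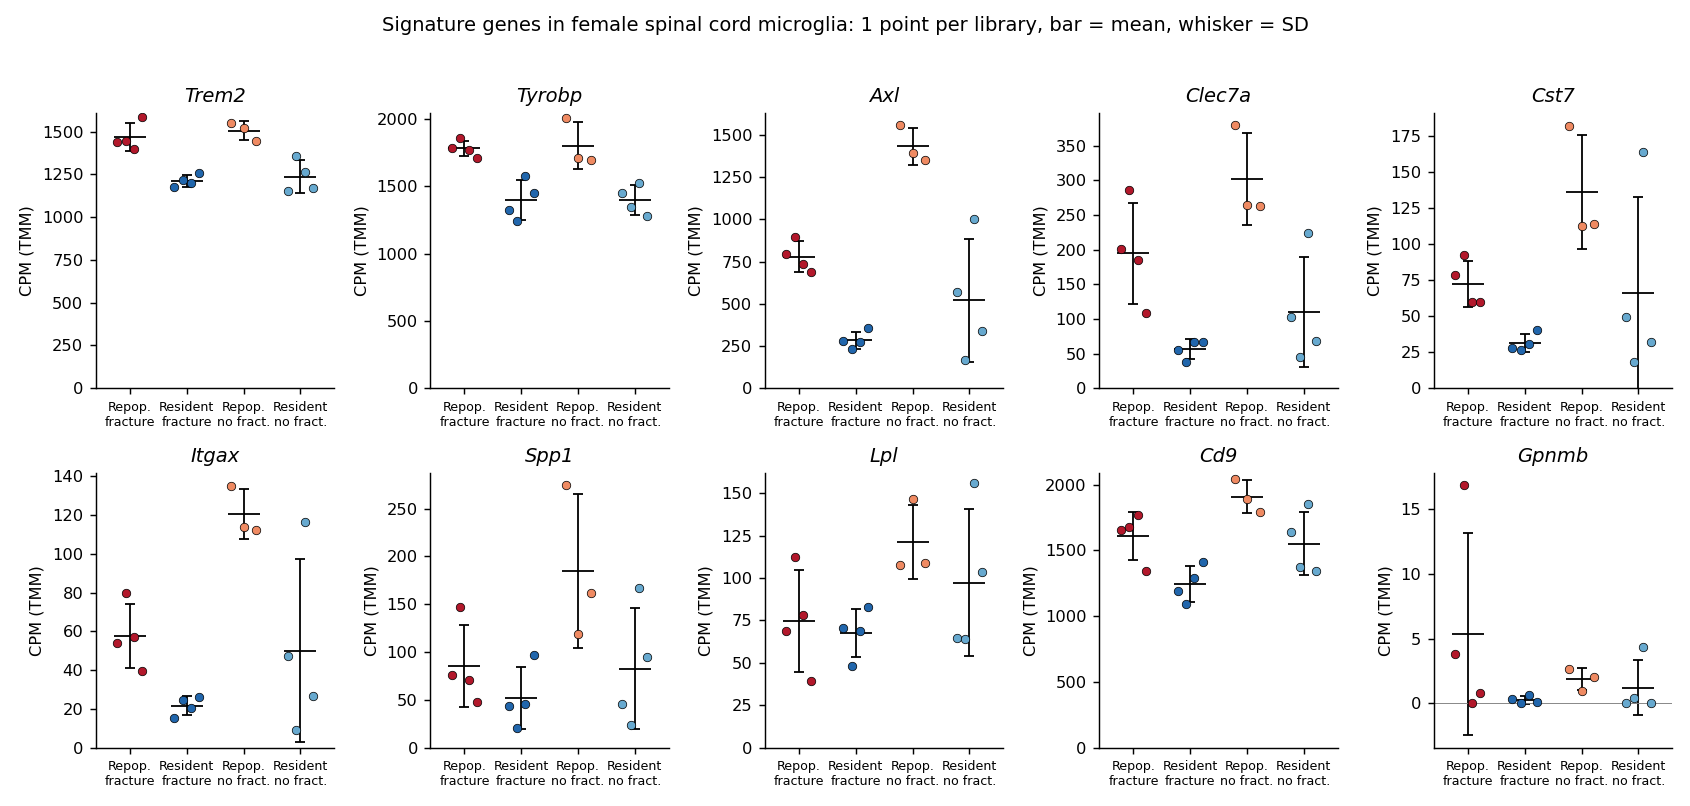
Level of each signature gene in every female library, in CPM on a linear axis, with 1 panel per gene and the groups repopulated with fracture, resident with fracture, repopulated without fracture and resident without fracture from left to right. Points are libraries, bars group means and whiskers SDs (cut at 0 except for Gpnmb, where they extend below it). Trem2 and Tyrobp form tight groups, while Axl, Clec7a, Cst7 and Itgax show 1 high resident library without fracture, at 1003 CPM for Axl.

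Spp1 and Lpl, which encode the secreted protein osteopontin and the enzyme that releases fatty acids from lipoproteins, varied more within groups. Spp1 had 75.7, 148, 70.4 and 48.3 CPM in female repopulated libraries with fracture, against 43.3, 21.1, 45.4 and 97.4 CPM in resident ones. In the absence of fracture it had 275, 118 and 162 CPM in repopulated and 45.8, 23.5, 167 and 94.4 CPM in resident libraries. The groups overlapped in both states, and Spp1 did not pass (0.72 ± 0.61, adjusted p = 0.73 with fracture, 1.16 ± 0.65, adjusted p = 0.45 without fracture). Male Spp1 had a lowest value of 73.8, a median of 90.02 and a highest value of 171 CPM in repopulated libraries with fracture, against 91.2, 42.9, 66.7, 63.4 and 54.4 CPM in resident ones. Without the injury it had 148 and 312 CPM in repopulated and 117, 21.2 and 36.5 CPM in resident libraries. Spp1 did not pass with fracture (0.72 ± 0.37, adjusted p = 0.384) and rose without fracture by 1.96 ± 0.56, adjusted p = 0.0457. That call was lost without repopulated library 2 or resident library 2 or 3, and in a fit on the 2 compared groups alone (adjusted p = 0.274; without a library, up to 0.424). It was also lost within the libraries numbered V64 to V79 (0.112) and with that range as a term (0.0556).

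Lpl had smaller estimates than Axl, Clec7a, Itgax, Cst7 and Spp1 in each of the 4 comparisons. Female libraries had 68.8, 113, 78.2 and 39.3 CPM of Lpl in the repopulated group with fracture, against 70.4, 48.2, 68.9 and 82.8 CPM in the resident one. Without fracture they had 108, 147 and 109.1 CPM in the repopulated and 64.9, 64.3, 156 and 103 CPM in the resident group. The groups overlapped, and Lpl did not pass (0.15 ± 0.33, adjusted p = 0.941 with fracture, 0.32 ± 0.35, adjusted p = 0.755 without fracture). Male Lpl had a lowest value of 45.1, a median of 65.002 and a highest value of 113 CPM in repopulated libraries with fracture, against 74.8, 69.6, 57.2, 53.0 and 64.2 CPM in resident ones. Without fracture it had 78.8 and 136 CPM in repopulated and 75.0, 45.0 and 58.0 CPM in resident libraries. Both male repopulated libraries without fracture lay above the resident ones, yet Lpl did not pass (0.18 ± 0.20, adjusted p = 0.779 with fracture, 0.85 ± 0.31, adjusted p = 0.122 without fracture). With fracture its 95% intervals were -0.50 to 0.79 in females and -0.22 to 0.58 in males, and the male sign turned to -0.22 in the libraries numbered V64 to V79.

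Cd9, a tetraspanin that organises other membrane proteins, was abundant in every library. It had 1655, 1678, 1766 and 1345 CPM in female repopulated libraries with fracture, against 1192, 1092, 1287 and 1413 CPM in resident ones. Where there was no fracture it had 2041, 1894 and 1790.2 CPM in repopulated and 1638, 1371, 1848 and 1342 CPM in resident libraries. With fracture only repopulated library 4 fell among the resident ones, without fracture resident library 3 lay above 1 repopulated library, and Cd9 did not pass (0.37 ± 0.11, adjusted p = 0.0928 with fracture, 0.30 ± 0.12, adjusted p = 0.223 without fracture). Without repopulated library 4 it passed with fracture (adjusted p = 0.0499). Male Cd9 had a lowest value of 1999.7, a median of 2177 and a highest value of 2497 CPM in repopulated libraries with fracture, against 1772, 1990.2, 1930.0, 1781 and 1466 CPM in resident ones. In the absence of fracture it had 2396 and 2701 CPM in repopulated and 2159, 1899.8 and 1655 CPM in resident libraries. No male groups overlapped, and Cd9 rose by 0.32 ± 0.08, adjusted p = 0.0198 with fracture and by 0.42 ± 0.12, adjusted p = 0.039 without fracture. The first call was lost without resident library 5 (adjusted p = 0.0649). The second was lost in a fit on the 2 compared groups alone (adjusted p = 0.0868), with the largest transcript only (0.0539), under library totals alone (0.33, adjusted p = 0.0645) and without resident library 2 or 3 or either repopulated library (up to 0.362).

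Gpnmb, a glycoprotein of lysosomal membranes, was near 0 in most female libraries. It had 3.80, 16.8, 0 and 0.808 CPM in repopulated libraries with fracture, against 0.317, 0, 0.627 and 0.107 CPM in resident ones. Without the injury it had 2.66, 0.958 and 2.07 CPM in repopulated and 0, 0.397, 4.38 and 0 CPM in resident libraries. Repopulated library 2 with fracture held most of its counts, the groups overlapped, and Gpnmb did not pass (adjusted p = 0.285 with fracture and 0.91 without fracture). No fold is given because several libraries of both groups were at or near 0.

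Male libraries carry V numbers in their titles, whose meaning the labels do not give. V64 to V79 cover all 4 groups and V99 to V110 the fracture groups only, so the comparison with fracture could be made within each range. Among V64 to V79 (3 repopulated and 3 resident libraries), Axl stood 1.52 higher (adjusted p = 0.0722), Cst7 1.28 (0.0538), Itgax 0.94 (0.136), Clec7a 1.09 (0.252) and Cd9 0.25 (0.355), so 0 members were called. Among V99 to V110 (4 repopulated and 2 resident), Axl rose by 1.92 (adjusted p = 0.042), while Cst7 stood 1.67 (0.0985), Itgax 1.92 (0.273), Clec7a 1.52 (0.077) and Cd9 0.46 (0.122) higher. With the range as a term over all 17 libraries, the same 5 members were called as without it.

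**Figure D3:**
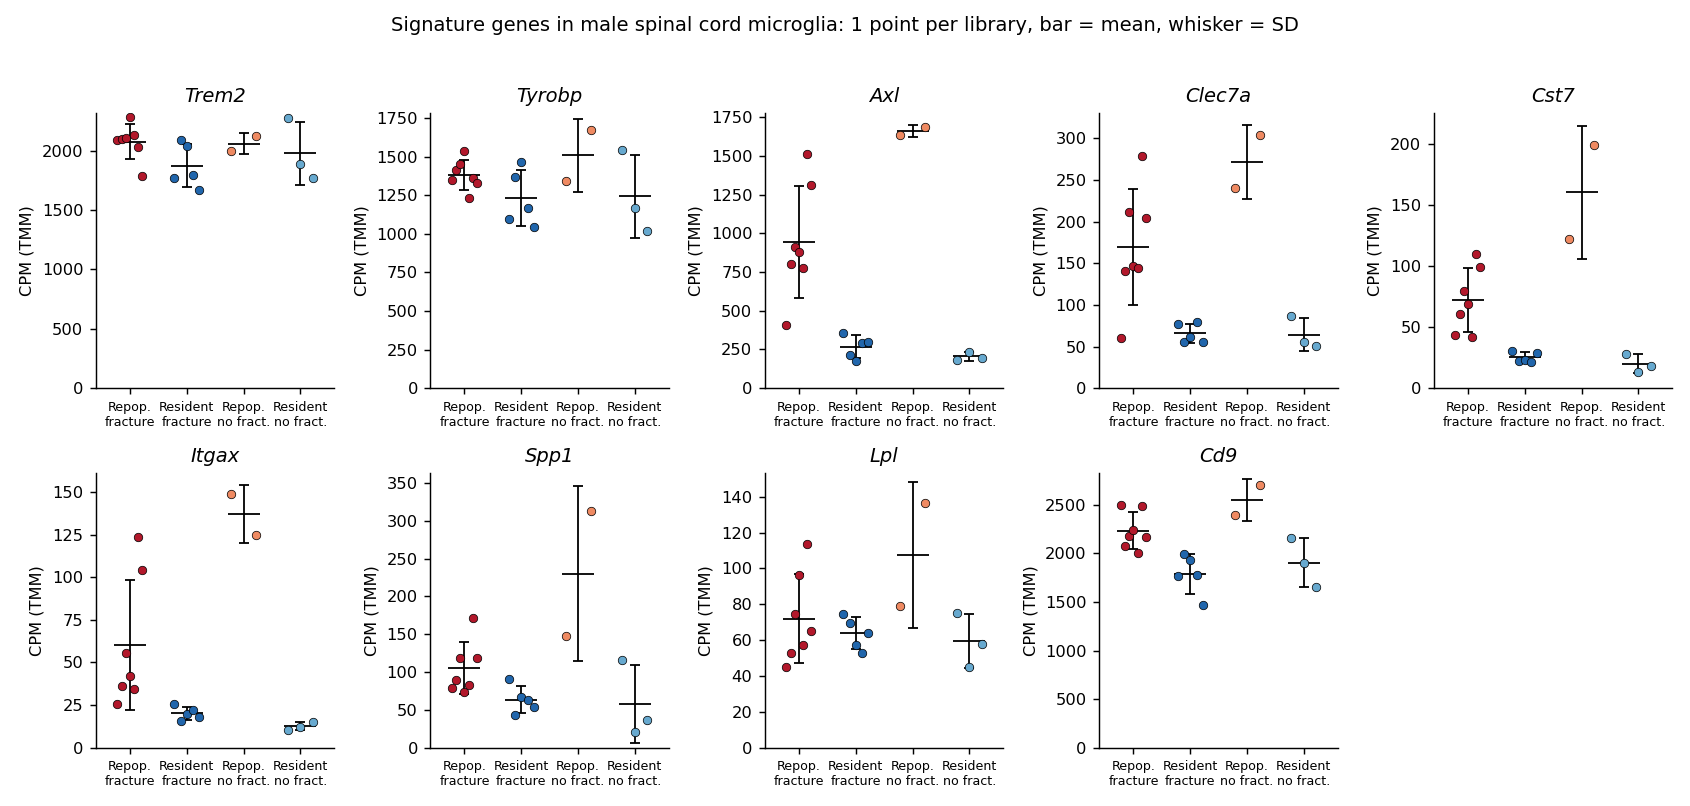
Level of each of the 9 signature genes listed in males in every male library, in CPM on a linear axis, with the groups repopulated with fracture, resident with fracture, repopulated without fracture and resident without fracture from left to right in each panel. Points are libraries, bars group means and whiskers SDs. Both repopulated libraries without fracture stand above all others for Axl, at 1635 and 1689.6 CPM, and the 7 repopulated libraries with fracture spread from 409 to 1511 CPM.

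The fracture comparison asked how the same cells differed between mice with and without the injury. No member was called for fracture by edgeR, nor by DESeq2, in either state or sex. DESeq2 called more genes than edgeR in each state and sex, with the counts given in the section on processing. By edgeR, 0% of genes were called in either state in females, and in males 0.00833% were, which is 1 gene in each state. At an unadjusted p below 0.05 there were 0 of 10 members in female repopulated microglia (1410 of 13377 genes), 1 of 10 in female resident (659 genes), 5 of 9 in male repopulated (995 of 11999 genes) and 0 of 9 in male resident microglia (511 genes). Estimates nevertheless pointed down in repopulated microglia of both sexes: 9 of 10 female and 8 of 9 male members were negative, with medians of -0.66 in females (-0.0068 over all genes) and -0.68 in males (0.013 over all genes). Every fracture library lay below every library without fracture for Axl, Cst7, Itgax and Cd9 in female repopulated microglia (6.2% of all genes were lower without overlap) and for Axl, Cst7 and Itgax in males (3.52% of all genes).

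In female repopulated microglia Axl differed by -0.88 ± 0.43, adjusted p = 0.493, Itgax by -1.06 ± 0.59, adjusted p = 0.551, Cst7 by -0.91 ± 0.56, adjusted p = 0.599 and Spp1 by -1.113 ± 0.65, adjusted p = 0.577. Fitted on the 2 compared groups alone, Axl passed there (-0.87, adjusted p = 0.00652). In male repopulated microglia Cst7 differed by -1.16 ± 0.29, adjusted p = 0.285, Itgax by -1.19 ± 0.42, adjusted p = 0.47, Spp1 by -1.14 ± 0.46, adjusted p = 0.548 and Axl by -0.82 ± 0.34, adjusted p = 0.552. For male Cst7 the unadjusted p was 0.000832. Trem2 and Tyrobp stayed near 0 in both sexes, with 95% intervals for Trem2 of -0.16 to 0.09 in females and -0.18 to 0.20 in males. These male values set 7 libraries with fracture against 2 without, and only 3 of the 7 share the V range of those 2. Within that range, V64 to V79, Itgax fell by 1.82 (adjusted p = 0.0143) while Axl stood at -1.24 (0.191) and Cst7 at -1.39 (0.068).

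In resident microglia the sexes gave different estimates, and the difference between the sexes was not tested. Females had 9 of 10 members negative, with a median of -0.77 against -0.0099 over all genes, and values such as -0.87 ± 0.40, adjusted p = 0.94 for Axl and -1.20 ± 0.56, adjusted p = 0.94 for Itgax. Resident library 3 without fracture, the highest of its group for 9 of 10 members, enters that comparison. Males had 6 of 9 members positive, with a median of 0.093 against -0.00039, and values of 0.38 ± 0.33, adjusted p = 0.9997 for Axl and 0.68 ± 0.44, adjusted p = 0.9997 for Itgax. Itgax was the only male member whose resident libraries with fracture all lay above those without (2.36% of all genes were higher without overlap).

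The interaction asks whether the repopulation difference itself changed with fracture. No member was called in either sex by edgeR or DESeq2. DESeq2 called more genes than edgeR in both sexes, with the counts given in the section on processing. By edgeR, 0% of genes were called in females and 0.00833%, or 1 gene, in males. At an unadjusted p below 0.05 there were 0 of 10 female members, against 494 of 13377 genes, and 3 of 9 male members, against 886 of 11999 genes. In females the member values scattered around 0, with a median of 0.031 and -0.01 ± 0.59, adjusted p = 0.9998 for Axl. In males 8 of 9 were negative, with a median of -0.71 against 0.016 over all genes. Itgax stood at -1.86 ± 0.62, adjusted p = 0.493, Cst7 at -1.47 ± 0.42, adjusted p = 0.376 and Axl at -1.20 ± 0.48, adjusted p = 0.602, so the smaller male repopulation difference with fracture did not hold up against the spread once all genes were adjusted for. Within V64 to V79 the Itgax interaction was -2.50 and passed (adjusted p = 0.015), while Cst7 (-1.72, 0.137) and Axl (-1.51, 0.301) did not.

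**Figure D4:**
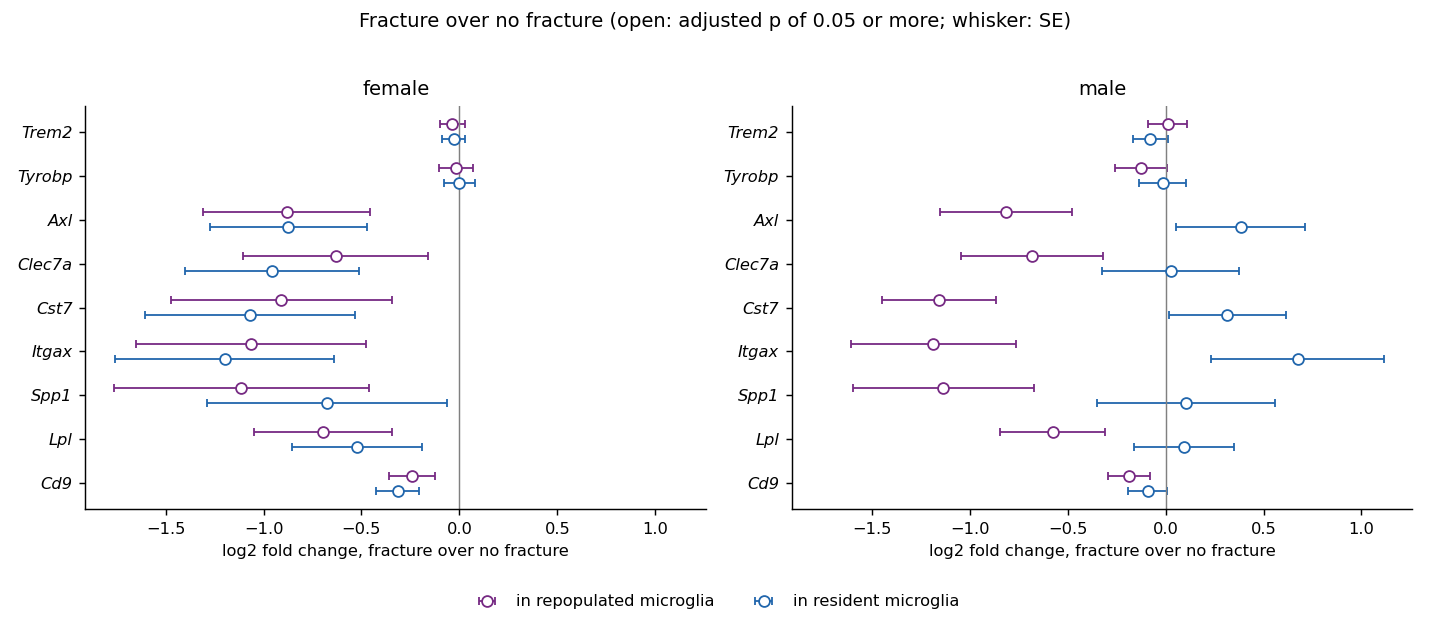
Log2 fold change of fracture over no fracture (x axis) for each signature gene (y axis), females on the left and males on the right, with the repopulated comparison drawn above the resident one. Points are edgeR estimates and whiskers standard errors; all points are open because none passed an adjusted p of 0.05. Axl, Clec7a, Cst7, Itgax, Spp1 and Lpl lie below 0 in repopulated microglia of both sexes, and in resident microglia lie below 0 in females only, where Axl stood at -0.87.

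Of 25 further disease-associated genes, 6 rose and 2 fell in females with fracture, and 8 rose and 1 fell without fracture. Among 24 listed in males, 10 rose and 1 fell with fracture, and 16 rose and 1 fell without fracture. Beside these and the lists that follow, 2.35% of all genes were called in females with fracture and 2.53% without. In males 4.91% of all genes were called with fracture and 7.42% without. Apoe, the lipid carrier that TREM2 binds, averaged 6583 ± 2239 CPM in female repopulated and 993 ± 156 CPM in resident libraries with fracture (SD, n = 4 each), and rose by 2.73 ± 0.56 (adjusted p = 0.029), and by 2.87 ± 0.59 without fracture (0.0283). In males it rose by 2.28 ± 0.33 with fracture (adjusted p = 0.00107) and 3.16 ± 0.48 without fracture (0.0009). The cathepsin gene Ctsb, whose product cystatins inhibit, rose in all 4 comparisons, by 0.58 ± 0.14 and 0.69 ± 0.15 in females and by 0.55 ± 0.09 and 1.115 ± 0.14 in males, with and without fracture in that order. Ctsd also rose in all 4, by 0.60 ± 0.08, 0.52 ± 0.09, 0.37 ± 0.09 and 0.64 ± 0.13 in the same order. The growth factor gene Csf1 and the inhibitory receptor gene Lilrb4a rose in males, by 0.96 ± 0.26 and 1.60 ± 0.41 with fracture. Ccl6, a chemokine gene named after its values were seen, fell in all 4, by 0.54 ± 0.09 and 0.67 ± 0.10 in females and 0.62 ± 0.10 and 1.37 ± 0.16 in males.

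Genes that act downstream of the receptors did not pass. Of 19 listed kinases, adaptors and effectors below TREM2 and dectin-1, 0 were called in any of the 4 comparisons, where up to 7.42% of all genes were. At an unadjusted p below 0.05 there were 2 and 2 in females and 4 and 4 in males, with and without fracture in that order. Over all genes, 1834 and 2041 of 13377 in females and 1885 and 2272 of 11999 in males had such a p. Syk, the kinase that both pathways recruit, stood at -0.04 ± 0.13 and -0.09 ± 0.14 in females and -0.21 ± 0.12 and -0.17 ± 0.19 in males, with and without fracture in that order. Among 20 ligands, co-receptors and partner subunits, 3 rose in females with fracture, 2 rose without fracture, 2 rose and 1 fell in males with fracture, and 6 rose without fracture. Itgb2, the beta chain that pairs with CD11c, rose in females without fracture by 0.36 ± 0.08 (adjusted p = 0.0289) and in males by 0.33 ± 0.06 with fracture (0.00102) and 0.66 ± 0.08 without (4.72e-05). Cd44, a receptor for osteopontin and also a marker of circulating macrophages, rose in females with fracture by 1.14 ± 0.26 and in males without fracture by 2.86 ± 0.57. Ctsc, another cathepsin gene, rose in females with fracture by 0.43 ± 0.08 and in males by 0.37 ± 0.06 and 0.47 ± 0.10. Gas6, the ligand of AXL, fell in males with fracture by 0.44 ± 0.12 (adjusted p = 0.0361), and Mertk, the related receptor gene, did not pass in any of the 4 (log2 fold changes from -0.07 ± 0.07 to 0.12 ± 0.07).

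Of 15 listed genes for transcription factors studied as regulators of the program, 0 were called in females. At an unadjusted p below 0.05 there were 2 with fracture and 0 without, against 1834 and 2041 of 13377 genes. In males, 1 of 14 rose and 2 fell with fracture, and 2 rose and 2 fell without fracture. Bhlhe40 rose without fracture by 3.61 ± 0.50, and Maf fell by 0.53 ± 0.11 and 0.89 ± 0.17, with and without fracture in that order. Mitf did not pass (adjusted p from 0.676 to 0.989), and Tfec was not listed. Of 18 homeostatic genes, 2 fell and 1 rose in females with fracture, and 6 fell and 2 rose without fracture. In males 6 fell with fracture and 8 without, and 0 rose. P2ry12, the purine receptor of resting microglia, fell in males by 0.49 ± 0.09 with fracture and 1.12 ± 0.15 without, and in females by 0.75 ± 0.16 without fracture (adjusted p = 0.0283), with -0.50 ± 0.15 and an adjusted p of 0.0937 with fracture. Tmem119 fell in males without fracture, by 0.39 ± 0.11 (adjusted p = 0.0305), and did not pass elsewhere. Cx3cr1, whose gene drives the Cre of this line, fell in females with fracture by 0.34 ± 0.08 and in males without fracture by 0.52 ± 0.13. For fracture, 0 genes of these 5 lists were called in either sex or state. Over all genes, edgeR called 0% in females and 0.00833% in males. At an unadjusted p below 0.05 by edgeR there were 13 of the 24 further disease-associated genes in male repopulated microglia. Over all genes there 995 of 11999 had such a p, and 2 of the 24 had positive estimates. Female repopulated microglia had 9 of 25, against 1410 of 13377 genes. Resident microglia had 4 of 25 in females (659 genes) and 4 of 24 in males (511 genes).

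After group means were removed, Pearson's r of log2 CPM among Axl, Cst7, Itgax, Clec7a, Spp1 and Lpl was 0.57 to 0.95 over the 15 female libraries and 0.28 to 0.83 over the 17 male ones, for 15 gene pairs. Trem2 gave -0.32 to -0.088 with those 6 genes in females and -0.5 to 0.25 in males. Cd9 gave 0.65 to 0.88 with the 6 genes in females and -0.24 to 0.38 in males, and Tyrobp 0.35 to 0.72 in females and -0.29 to 0.4 in males. Trem2 and Tyrobp gave 0.079 with each other in females and 0.83 in males. These correlations share libraries, depth and scaling, and are descriptions. Single libraries stood out for many members at once: female repopulated library 2 with fracture was the highest of its group for 8 of 10 members and library 4 the lowest for 7, and male repopulated library 6 with fracture, numbered V101, was the highest of its group for 6 of 9.

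The genes most like each member over all libraries of a sex, by Pearson's r of log2 CPM among genes with a mean of at least 5 CPM, differed between the tables. In females (15 libraries) Axl was most like the ferritin gene Fth1 (r = 0.98), Cst7 like the invariant chain gene Cd74 (0.975), Itgax like Cst7 (0.97), Clec7a like Slamf8 (0.979), Cd9 like the scavenger receptor gene Cd36 (0.968), Tyrobp like Ctsd (0.956) and Trem2 like Rpl36al (0.932). In males (17 libraries) Axl was most like the interferon-induced gene Ifit3 (0.991), Itgax like Lgals3bp (0.983), Clec7a like Xaf1 (0.956), Cst7 like the progranulin gene Grn (0.97), Spp1 like Cst7 (0.885), Cd9 like Rpl37a (0.948), Tyrobp like Rps15 (0.959) and Trem2 like the lysosomal gene Cd68 (0.922). Spp1 was most like Got1 (0.919), Lpl like Carmil1 (0.843) and Gpnmb like Pnpla2 (0.877) in females, and Lpl like Macroh2a1 (0.855) in males. These values contain the group differences and share libraries, so they carry no test.

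Several members were spread over more than 1 transcript. A 4784-base Trem2 transcript annotated as a retained intron took 23.3% to 31.7% of Trem2 counts in female libraries and 5.52% to 9.83% in male libraries, a gap that goes with sex and with library kit alike. Within females its share was 26.9% ± 1.14 in repopulated and 27.1% ± 3.49 in resident libraries with fracture (SD, n = 4 each), and 28.3% ± 2.49 (n = 3) against 27.7% ± 1.67 (n = 4) without fracture. Tyrobp counts were divided between coding transcripts of 564 and 597 bases, with medians of 60.3% and 38.9% in females and 54.7% and 44.3% in males. An Lpl transcript of 1900 bases annotated for nonsense-mediated decay took 37.4% to 54.9% of Lpl counts in females and 32.1% to 49.9% in males. For Clec7a, a 2272-base transcript took 74.4% to 85.4% in females and 79.5% to 87.7% in males, and the annotation classes both it and the gene as a polymorphic pseudogene. Axl, Itgax, Cd9, Cst7 and Gpnmb were each carried almost wholly by 1 coding transcript, with medians from 93.5% to 100% in either table. Such shares are model estimates, and reads that fit several transcripts of a gene are divided between them.

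**Figure D5:**
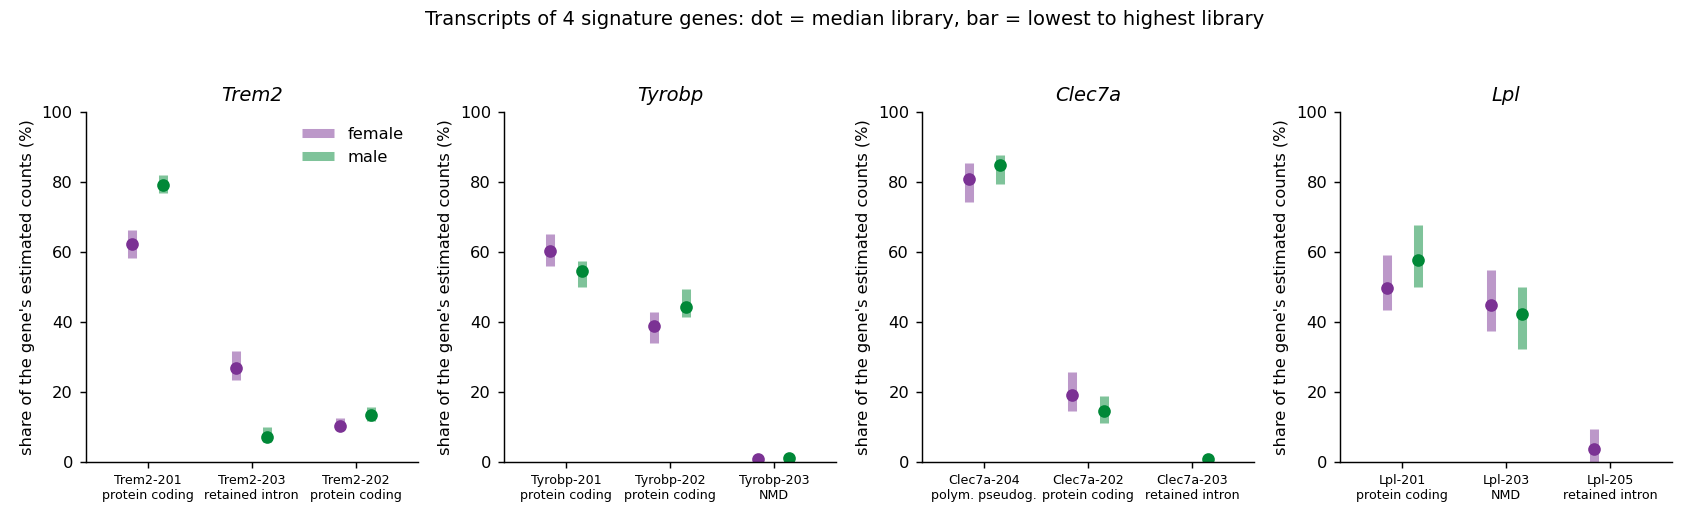
Share of a gene's estimated counts (y axis, percent) carried by each of its main transcripts (x axis, with the annotated class) for Trem2, Tyrobp, Clec7a and Lpl. Dots are the median library and bars run from the lowest to the highest library, over 15 female and 17 male libraries. The Trem2 transcript with a retained intron has a median of 26.9% in females and 7.21% in males, with no overlap between the bars.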

How the data were processed

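RNA from sorted spinal cord microglia was measured in 15 female and 17 male libraries. The deposited tables hold estimated counts per transcript, made by the authors with STAR 2.7.6a and RSEM 1.3.1 among other tools on build GRCm38, per the submitters' processing notes. The listed transcripts had at least 10 estimated counts in 8 of 15 female or 9 of 17 male libraries, as tested on the files. Estimated counts were summed per gene and rounded. Each table was fitted apart with edgeR 4.0.16 (R 4.3.3, TMM scaling, robust quasi-likelihood test, all groups in 1 fit), with Benjamini-Hochberg adjustment over all genes, a threshold of 0.05 and two-sided tests. A standard error is the log2 fold change divided by the square root of its F value, and a 95% interval spans 1.96 standard errors on each side. These intervals are approximate and somewhat narrower than those of the quasi-likelihood test itself. TPM were computed from GENCODE M21 transcript lengths. Rows with no gene symbol numbered 24 (females) and 25 (males) and were kept in the totals. The alternatives were DESeq2 1.42.0, library totals alone, other filters, a replicate block, only the compared groups, the largest transcript, V number ranges and each library left out. No 2 libraries were identical. The fit was tested on simulated data. The 10 members and the other gene lists were chosen with earlier results of these data known. All members are named, and of each other list at most 4 called genes per comparison, those with the largest changes whose higher group averaged 5 CPM or more, besides a few genes always named for their role. Some results for single genes of the regulator and marker lists are not reported here.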

Additional observations from a re-analysis of the deposited data

Results flagged for a closer look

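Gpnmb in female resident libraries without fracture stood at 4.38 CPM in library 3, against 0.397 CPM in the next highest of the 4 libraries, a gap of 0.909 of the group's range.

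Itgax in males had all fracture libraries below those without fracture in repopulated microglia and all above them in resident microglia. The test of that difference, the interaction, gave -1.86 on the log2 scale with an adjusted p of 0.493 by edgeR. It passed within V64 to V79 and with the replicate number as a block. The nearest libraries were close in both states. In repopulated microglia they had 123.7 CPM with fracture and 125.0 CPM without, and in resident microglia 15.9 and 15.3 CPM.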

How the results depend on the processing

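With DESeq2 the genes called were 676 (repopulated against resident without fracture), 694 (with fracture), 4 (fracture in resident), 90 (fracture in repopulated) and 1 (interaction) in females, with 5 members called with fracture, and 12, 58 and 49 for the last 3 comparisons in males. DESeq2 added female Axl in both states, Clec7a and Cd9 with fracture, and male Lpl without fracture. Library totals alone left 0 female members called in either state. Calling only on the groups compared gave 0 female genes and 0 members without fracture, 629 genes and 6 members with fracture, and 86 genes and 1 member for fracture in repopulated, and in males 5 genes for fracture in resident and 0 in repopulated. The largest transcript alone gave 216 female genes and 1 member without fracture and 1 member with fracture, and in males 4 genes for fracture in repopulated and 5 for the interaction. A mean of at least 5 CPM gave 0 and 2 male genes for those 2, and no filter changed nothing. Within V64 to V79, males gave 80 genes and 0 members with fracture, 40 genes and 1 member for fracture in repopulated, and 25 genes and 1 member for the interaction. V range as a term gave 2 and 0 genes for the last 2. Within V99 to V110, an alternative chosen after seeing the data, 43 genes and 1 member were called with fracture. The cause of these changes was not tested.

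With the replicate number as a block, females had 143 genes and 0 members called without fracture and 184 genes and 1 member, Trem2, with fracture. Males had 761 genes and 4 members without fracture, where Spp1 (adjusted p = 0.0832) and Cd9 (0.0606) were lost, 293 genes and 3 members with fracture, where Clec7a (0.112) and Cd9 (0.0583) were lost, 2 genes for fracture in resident, 56 genes and 1 member for fracture in repopulated, and 57 genes and 1 member for the interaction, the member being Itgax in both. Correlations between same-numbered libraries, after group means were removed, ran from -0.57 to 0.44 over all comparisons. For female repopulated against resident they ran from 0.0796 to 0.44 without fracture, where other numbers averaged -0.0889. With fracture they ran from -0.0906 to 0.259, against -0.0253. Of these female pairs, 2 of 3 without and 2 of 4 with fracture lay above 0.1. No other pair did, in either sex. Whether same-numbered female libraries shared a batch was not tested.

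Leaving out each library in turn gave, without fracture, 51 to 612 genes and 0 to 6 members called in females and 414 to 722 genes and 3 to 6 members in males. With fracture it gave 106 to 233 genes and 0 to 2 members in females and 400 to 716 genes and 4 to 5 members in males. For fracture in resident it gave 0 to 1 genes in females and 1 to 2 in males, for fracture in repopulated 0 and 1 to 29, and for the interaction 0 to 1 and 0 to 14, with 0 members in each.

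Of the member results under other settings, 681 kept direction and side of the threshold, 14 passed newly, 30 no longer passed and 14 changed sign. After a sign change the female Itgax interaction stood at -0.0109 with the block. With the largest transcript the female Axl interaction stood at 0.00933 and female Tyrobp for fracture in repopulated at 0.0167. Male Trem2 gave -0.0028 (DESeq2, fracture in repopulated) and -0.0309 (library totals, without fracture). Male Lpl with fracture gave -0.0031 (block) and -0.223 (V64 to V79), the last being the largest of the 14 in size. For fracture in male resident microglia, Tyrobp gave 0.0322 (block), 0.0509 (largest transcript), 0.0765 (V64 to V79) and 0.0314 (V range as a term), and Clec7a -0.0251 (block), -0.00111 (V64 to V79) and -0.096 (V range as a term). With a library left out, 819 kept both, 5 passed newly, 30 no longer passed and 55 changed sign, each of the 55 in a result that was not called. For fracture in repopulated microglia in females the ranges were Tyrobp -0.0574 to 0.0736 and Gpnmb -0.302 to 1.91. The full ranges for fracture in resident microglia in females were Trem2 -0.0616 to 0.0177, Tyrobp -0.0625 to 0.0537 and Gpnmb -3.01 to 0.974. For repopulation with fracture in females the ranges were Lpl -0.125 to 0.355. The full ranges for the interaction in females were Trem2 -0.055 to 0.0244, Axl -0.54 to 0.288, Tyrobp -0.0707 to 0.0678, Cd9 -0.0245 to 0.146, Itgax -0.712 to 0.481, Cst7 -0.83 to 0.476, Clec7a -0.285 to 0.585, Spp1 -1.03 to 0.0617 and Lpl -0.493 to 0.0395. For fracture in repopulated microglia in males the ranges were Trem2 -0.0336 to 0.0559 and Tyrobp -0.276 to 0.0429. The full ranges for fracture in resident microglia in males were Trem2 -0.152 to 0.0355, Cd9 -0.181 to 0.00881, Tyrobp -0.138 to 0.17, Lpl -0.0582 to 0.298, Spp1 -0.265 to 1.108 and Clec7a -0.126 to 0.32. For repopulation without fracture in males the ranges were Trem2 -0.00185 to 0.173. The full ranges for the interaction in males were Trem2 -0.025 to 0.159 and Tyrobp -0.295 to 0.0582.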

Other observations

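Listed markers of other cells that a sort could hold differed in summed level between kinds of cell. In every group, dendritic, neuronal and endothelial sums were each lower than those of B cell, oligodendrocyte, astrocyte and neutrophil markers. Genes of B cells that were listed, 3 of 6, were lower in repopulated microglia. Ighm, the heavy chain gene of IgM, averaged 382 ± 26.5 CPM in female repopulated and 503 ± 23.2 CPM in resident libraries with fracture (SD, n = 4 each), and fell in all 4 comparisons, while Cd79a and Ms4a1 were not listed in either table. Pecam1, an adhesion gene of endothelium, averaged 4.43 ± 1.97 against 22.1 ± 2.46 CPM in the same groups and fell by 2.32 (adjusted p = 0.0214 by edgeR), and it also fell without fracture in both sexes. Kdr, another endothelial gene, rose in males without fracture, by 2.58.

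Csf3r, the only listed gene of 8 neutrophil markers, rose in 3 of the 4 comparisons, and S100a8 and S100a9 were not listed in either table. Its level was 856 to 1246 CPM in female and 346 to 601 CPM in male libraries. Cspg4, a marker of oligodendrocyte precursors, averaged 6.10 ± 4.89 CPM in female repopulated libraries without fracture (SD, n = 3) and was at 0 in the 4 resident ones. Slc1a3, an astrocyte gene, fell in males with fracture by 0.43. Of dendritic and neuronal markers, 3 and 2 genes were listed in females and 1 and 2 in males, and either list summed to 15.51 CPM or less. They gave 0 calls by edgeR in the 4 comparisons, where 2.35% to 7.42% of all genes were called. At an unadjusted p below 0.05 there were 0 of them, against 1834 to 2041 of 13377 female and 1885 to 2272 of 11999 male genes. With so few genes at such low levels, these counts do not show that the cells were absent. Of 8 markers of T and NK cells none was listed in either table. In females, the count filter would leave out any marker found in repopulated libraries alone.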
